A study of Drosophila melanogaster with 7 samples.

Results

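Neuropeptide precursor genes encode the long proteins from which neurons and endocrine cells cut short signalling peptides. The 40 genes described here were chosen by symbol from a list of Drosophila peptide precursors, and all 40 were present among the 17493 genes of the count tables. A precursor is cut by convertases such as amontillado (amon), trimmed and amidated by enzymes such as Phm and Pal2, and stored in dense-core vesicles. Most of the peptides act at low concentrations on G-protein coupled receptors, often far from the cell that released them. Many peptidergic neurons also use a small transmitter, and in the larval brain peptides take part in the control of feeding, growth, moulting, water balance and daily rhythms.

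The measurements come from single cells of dissociated brain lobes of first instar larvae of Drosophila melanogaster, strain Wild type CS, with the ventral nerve cord cut off and many larvae pooled in each sample. In the starvation condition, larvae were moved 11 hr after hatching to 2% agar without food and stayed there for 4 hr, which gave 3 libraries. Larvae of the normal condition stayed on food and gave 4 libraries. Together the libraries held 9353 cells, 4645 from the starvation condition and 4708 from the normal condition. Starvation 1 and 2 were counted as replicate A and Starvation 3 as replicate B, Normal 1 as replicate A, Normal 2 and 3 as replicate B and Normal 4 as replicate C. The labels give no such grouping, which follows the experiments listed by the study. Libraries were linked to them by inference from the number of barcodes within each condition, and median genes and UMIs per cell matched as well. Cells of a pool are not separate animals, and p-values measure the spread between pools.

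Each transcript was counted once through its unique molecular identifier (UMI). The median cell held 5667 to 7519 UMIs in the starvation libraries and 2228 to 13486 UMIs in the normal libraries. Starvation 1, Starvation 2, Normal 2 and Normal 3 shared cell barcodes, with 597 barcodes common to Normal 2 and 3 and 170 to 262 in the other 5 pairs, against 0 to 5 in all pairs with another library. Cells whose barcode also marked a cell of another library at more than 3 times the UMIs, called cells with a deeper copy here, numbered 142 in Starvation 1, 113 in Starvation 2, 348 in Normal 2 and 485 in Normal 3, and at most 5 in each of the rest. Their number is given beside results in which they took a large part. Cell classes were rebuilt from clusters formed without the 40 genes. Of all cells, 5013 were neuron-like, 246 Kenyon cell-like, 499 glia-like and 108 hemocyte-like, and 169 cells fell into a cluster led by the insulin-like peptide genes Ilp2 and Ilp5 in each condition, which carried no class name. Levels, sums and comparisons of neuron-like cells include the Kenyon cell-like ones unless stated otherwise, whereas counts of high cells by class keep them apart.

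A cell was called high for a gene when it held 10 or more UMIs of that gene and these made up 50 or more of every 10000 UMIs of the cell. By this measure 784 cells (8.38% of all cells, 702 different barcodes) were high for at least 1 of the 40 genes. They numbered 166, 144 and 93 in Starvation 1 to 3 and 116, 88, 99 and 78 in Normal 1 to 4. The share per library lay between 8.03% and 9.30% in the starvation condition and between 7.72% and 8.44% in the normal condition, and the exact 95% intervals of all 7 libraries, which cover counting error only, overlapped. By replicate, the share was 8.50% and 9.30% in starvation and 8.44%, 7.87% and 8.15% in normal. The difference of 0.749 percentage points had p = 0.2 in a two-sided exact permutation test, the smallest p that 2 against 3 replicates can give. It turned to -0.337 points when 20 UMIs and 100 per 10000 were asked for, and to -0.0972 points in cells thinned to 2000 UMIs.

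**Figure D1:**
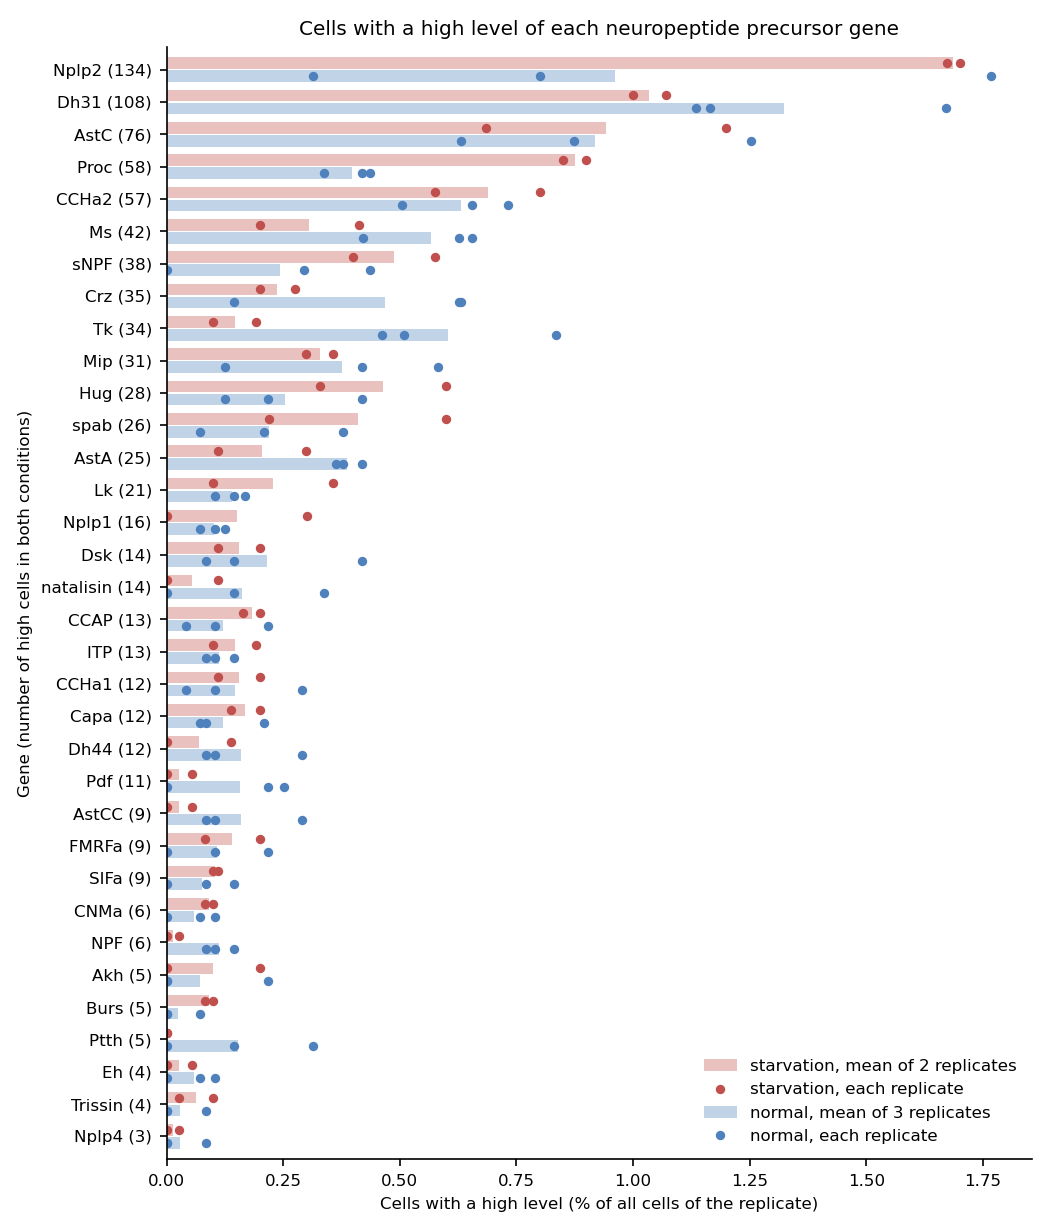
Share of cells with a high level of each gene, in percent of all cells of a replicate, for the 34 genes with a high cell. Bars are means, points are the 2 starvation replicates (red, upper) and the 3 normal replicates (blue, lower), and the number of high cells stands behind each symbol; Proc is the gene among the 5 with the most high cells whose starvation points both lie right of all normal points.

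Of the 40 genes, 34 had at least 1 high cell and 23 had 10 or more. Among the high cells, 521 (66.5%) were neuron-like or Kenyon cell-like, 96 (12.2%) belonged to the Ilp2- and Ilp5-led clusters and 107 were hemocyte-like. In those insulin-led clusters 56.8% of the 169 cells were high for a peptide precursor gene of the list. By the same measure 44 cells were high for Ilp2, and 39 of them lay in these clusters. The name therefore stands for leading genes and not for insulin-producing cells alone. The high cells had a median of 8106 UMIs, against 5839 in cells high for none. Of the 784 cells, 153 had a barcode found in another library as well and 86 had a deeper copy, and without the latter 698 high cells remained. A lower threshold of 5 UMIs and 25 per 10000 gave 1331 high cells and a higher threshold of 20 UMIs and 100 per 10000 gave 496, so that the numbers of cells below hold for the threshold stated.

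Hormones known from neurosecretory cells come first. Eclosion hormone (Eh), which takes part in triggering ecdysis, was high in 4 cells, which held 3558 UMIs (Starvation 1), 2717 (Starvation 2), 998 (Normal 1) and 3646 (Normal 4). These 4 cells carried 76.3% of all Eh UMIs, and all 4 lay in the insulin-led clusters. Prothoracicotropic hormone (Ptth), the brain peptide that stimulates ecdysone synthesis, was high in 0 of 4645 starvation cells, which allows a share of up to 0.0646%, and in 5 normal cells. The 2 high cells of Normal 1 held 45 and 29 Ptth UMIs and the 3 of Normal 4 held 784, 592 and 483. All 5 lay in the insulin-led cluster of the normal condition, and none came from Normal 2 or 3. The threshold matters here, since the highest cells of Starvation 1 and 2 held 30 and 52 Ptth UMIs, close to the numbers of Normal 1, but were under 50 per 10000.

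Hugin (Hug), whose pyrokinin peptides reduce feeding in larvae, was high in 18 starvation and 10 normal cells, with 5, 7 and 6 cells in Starvation 1 to 3 and 3, 2, 1 and 4 in Normal 1 to 4. A Hug-high cell devoted a median of 783 of 10000 UMIs to this transcript, and 21 of the 28 cells were in the insulin-led clusters. Diuretic hormone 44 (Dh44), related to vertebrate corticotropin-releasing factor, had 12 high cells, 10 of them in these clusters. Its cells were unevenly spread, with 5 in Starvation 2, none in Starvation 1 and 3, 4 in Normal 1 and 1 in each of Normal 2 to 4. Ion transport peptide (ITP), a regulator of water balance, was high in 13 cells with a median of 1481 per 10000, the lowest with 56.8 and the highest with 2418.

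Leucokinin (Lk), which acts on the renal tubules and on feeding, was high in 7, 6 and 1 cells of Starvation 1 to 3 and in 2, 2, 2 and 1 cells of Normal 1 to 4. Annotated genes overlap Lk and also Hug, Dh31, Tk, ITP, SIFa, Ptth, CCAP, Dh44, Dsk, natalisin, amn and ETH, so that reads could be divided between them, and the handling of strand is not given in the sources used here. Myosuppressin (Ms), an inhibitor of visceral muscle, was high in 42 cells with a median of 1239 per 10000, and reached 7507 UMIs in a single cell of Starvation 1. Of these cells 27 were neuron-like and 11 lay in the insulin-led clusters. Corazonin (Crz), a stress peptide related to gonadotropin-releasing hormone, was high in 6, 4 and 2 cells of Starvation 1 to 3 and in 2, 7, 8 and 6 cells of Normal 1 to 4. The Crz cells belonged to several classes, with 13 neuron-like, 9 in the insulin-led clusters and 8 NPC-like, and 18 of the 35 had a shared barcode and 11 a deeper copy, which left 24 Crz cells.

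The Capa gene, whose peptides act on the renal tubules, was high in 12 cells. In 2 cells of Starvation 3 it held 3697 and 3401 UMIs, whereas the other 10 high cells held 53 to 330. Both extreme cells were in the insulin-led cluster, and 9 of the other 10 were neuron-like. Drosulfakinin (Dsk), a cholecystokinin-like satiety peptide, was high in 14 cells, 10 neuron-like and 4 NPC-like. None of its high cells lay in the insulin-led clusters, and the 44 cells high for Ilp2 held 0.869 Dsk UMIs per 10000. Of these 44 cells, 2 were high for a gene of the list (Dh44 and Nplp2). Adipokinetic hormone (Akh), the lipid-mobilising hormone of the corpora cardiaca, was high in 2 cells of Starvation 3 and 3 of Normal 1. Crustacean cardioactive peptide (CCAP), which acts during ecdysis, was high in 8 starvation and 5 normal cells, and Bursicon (Burs), which acts in cuticle tanning, in 4 and 1.

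The modulators of larger groups of neurons made up most high cells. Diuretic hormone 31 (Dh31, FBgn0032048, chromosome 2L of BDGP6, 8491868 to 8506845), a calcitonin-related peptide, was high in 108 cells, 100 of them neuron-like. They numbered 24, 15 and 10 in Starvation 1 to 3 and 16, 14, 13 and 16 in Normal 1 to 4. Allatostatin C (AstC, FBgn0032336, 2L, 11076165 to 11081399), a somatostatin-like inhibitory peptide, was high in 76 cells, with 16, 9 and 12 in Starvation 1 to 3 and 12, 9, 6 and 12 in Normal 1 to 4. Every library held cells of both genes, and the numbers of the conditions overlapped for both.

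Proctolin (Proc, FBgn0045038, 2L, 7864642 to 7871432), which stimulates muscle contraction, was high in 21, 10 and 9 cells of Starvation 1 to 3 and in 6, 2, 6 and 4 cells of Normal 1 to 4. The median Proc level of its high cells lay just above the threshold that chose them, between 69.3 and 77.8 per 10000 in the starvation libraries and between 69.2 and 79.7 in the normal libraries. CCHamide-2 (CCHa2), a peptide that in larvae also signals from fat body to brain, was high in 57 cells, 56 of them neuron-like. Tachykinin (Tk, FBgn0037976, 3R, 11994175 to 12005473), the Drosophila relative of substance P, was high in 4, 3 and 1 cells of Starvation 1 to 3 and in 7, 6, 5 and 8 cells of Normal 1 to 4. All 34 Tk cells were neuron-like.

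Short neuropeptide F (sNPF), which promotes feeding, was high in 25 starvation and 13 normal cells, none in Normal 4. Myoinhibitory peptide (Mip) had 31 high cells, 30 of them neuron-like, and Allatostatin A (AstA), which reduces feeding in adult flies, had 25, of which 24 were neuron-like. The precursor gene spab was high in 26 cells and CCHamide-1 (CCHa1) in 12, all neuron-like. Neuropeptide-like precursor 1 (Nplp1) had 16 high cells, none of them in Starvation 3, and natalisin, which acts in mating, had 14, none in Starvation 3 and Normal 4. For natalisin 9 of the 14 cells had a shared barcode, and only 9 different barcodes were found.

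Pigment-dispersing factor (Pdf), the peptide of the clock neurons, was high in 1 cell each of Starvation 1 and 2 and in 3, 4 and 2 cells of Normal 1 to 3. Neither Starvation 3 nor Normal 4 had a Pdf-high cell, and the 11 cells had a median of 926 per 10000. SIFamide (SIFa), which in adults promotes feeding, was high in 9 cells. The 5 starvation cells held 1982 to 2686 SIFa UMIs and lay in the insulin-led cluster, while of the 4 normal cells 3 were neuron-like and 1 unnamed. Neuropeptide F (NPF, FBgn0027109, 3R, 16609220 to 16611325), the relative of vertebrate neuropeptide Y that promotes feeding, had 1 high cell in the starvation condition, with 81 UMIs in Starvation 1. In the normal condition 5 cells were high, with 1499 and 119 UMIs in Normal 1, 1529 in Normal 2, 287 in Normal 3 and 2155 in Normal 4. The cells of Normal 2 and 3 had the same barcode, and 1 of them had a deeper copy. Allatostatin double C (AstCC) and FMRFamide (FMRFa) were high in 9 cells each, CNMamide (CNMa) in 6, Trissin in 4 and Nplp4 in 3.

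Nplp2 was high mainly outside neurons, and the 3 Nplp4 cells were muscle-like (2) or in a cluster named for trachea (1). Nplp2 had the most high cells, 28, 33 and 17 in Starvation 1 to 3 and 11, 20, 22 and 3 in Normal 1 to 4, and 107 of the 134 were hemocyte-like against 1 neuron-like. Hemocyte-like cells of Starvation 1 to 3 held 40309, 33751 and 36792 CPM of Nplp2 (UMIs summed over the cells and scaled to the usual total of counts per library), and those of Normal 2 and 3 held 90045 and 97457 CPM. Normal 1 had no hemocyte-like cell and Normal 4 had 1. The hemocyte marker list of 7 genes summed to 68.4 to 114 CPM in the starvation libraries and 16 to 964 CPM in the normal libraries. Of the Nplp2-high cells 46 had a shared barcode and 30 a deeper copy. CG8157 was found in all 134 cells, the hemocyte gene He in 116 and the basement membrane gene Ppn in 107, each at least 100-fold above its level in neurons.

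No cell was high for amnesiac (amn), a memory gene, ecdysis triggering hormone (ETH), which is made by the Inka cells on the tracheae, the glycoprotein hormone subunit Gpb5, Nplp3, Orcokinin or RYamide (RYa). With 0 of 9353 cells a share of up to 0.0321% is allowed. Nplp3 had 0 UMIs in all cells, RYa 41, Orcokinin 105, amn 238 and ETH 494. Gpb5 differed from the other 5, because it had 4377 UMIs in 2752 cells and at most 15 in any cell. In neuron-like cells without the Kenyon cell-like ones it had 68.7 to 114 CPM in the starvation libraries and 71.5 to 112 CPM in the normal libraries. In glia-like cells it had 6.75 to 13.1 CPM in the starvation libraries and 11.3 to 41.1 CPM in the normal libraries.

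The high cells were then compared with the transmitter genes. A cell was assigned to a transmitter when it held 5 or more UMIs of VGlut (glutamate), VAChT or ChAT (acetylcholine), Gad1 or VGAT (GABA), or a monoamine gene other than Ddc, which was counted apart. Among 4738 neuron-like cells high for none of the 40 genes, 924 passed for glutamate, 1312 for acetylcholine, 795 for GABA and 338 for a monoamine, and 1567 (33.1%) for none of these 4 groups, whatever their Ddc count (499 passed for Ddc). Of 496 glia-like cells, which should lack these genes, 448 (90.3%) passed for none. The median depth was 6479 UMIs in these neurons and 4178.5 UMIs in the glia-like cells. Cells were chosen by their peptide level and are not replicates, so the following numbers are a description and no test was made. Because deeper cells pass more easily, shares are also given after thinning cells to 2000 UMIs, in which 1 UMI was enough.

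**Figure D2:**
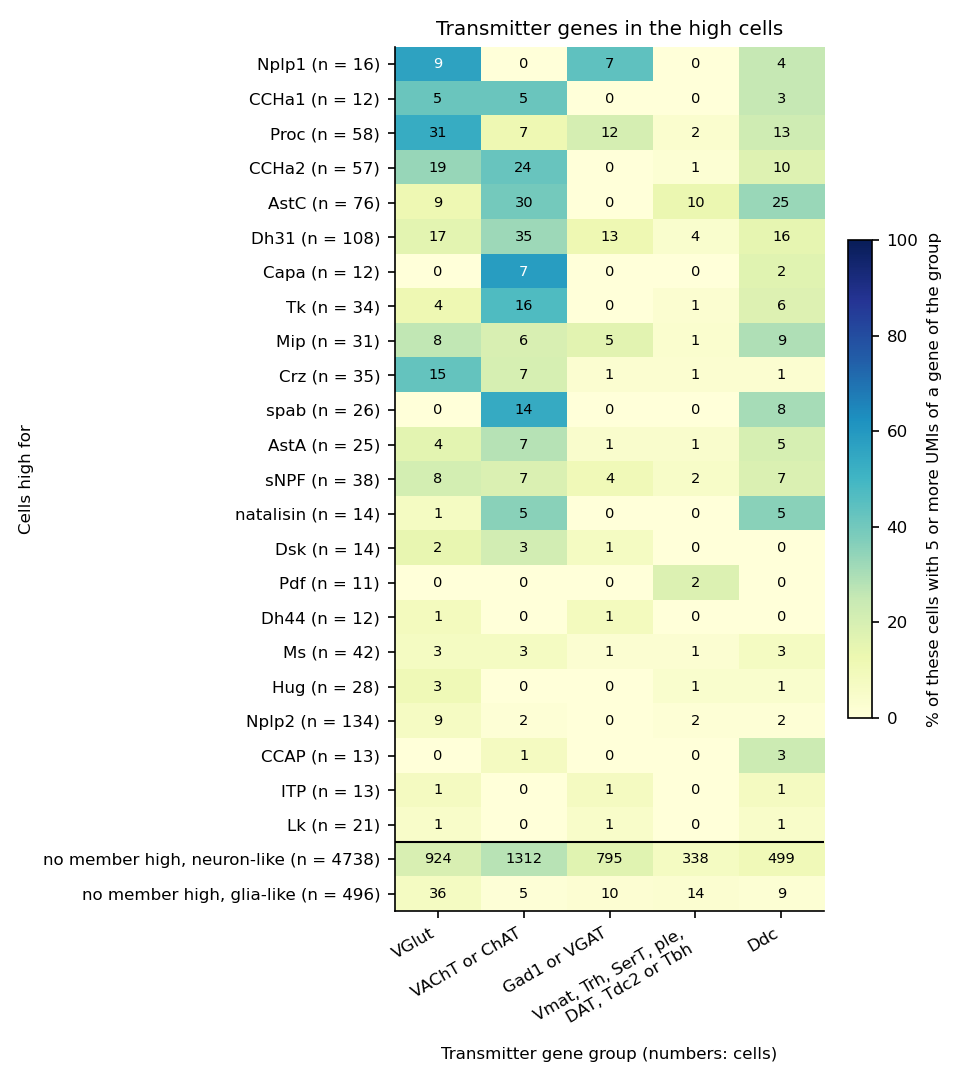
Cells with 5 or more UMIs of a gene of each transmitter group (columns), for the 23 genes with 10 or more high cells and for neuron-like and glia-like cells high for none (rows). Colour is the percentage of the cells of the row and the printed number the count of cells; Proc and Nplp1 are darkest under VGlut, Capa, spab and Tk under VAChT or ChAT, and Hug, Lk, ITP, Ms and Dh44 are pale in all columns.

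Peptide genes differed in the transmitter genes of their cells. Of the 58 Proc cells, 31 (53.4%) passed for glutamate, 12 for GABA and 7 for acetylcholine. After thinning, 59.6% of Proc cells held VGlut, compared with 36.9% of neurons and 25.8% of glia-like cells. Nplp1 had the same 2 leading groups, with 9 of 16 cells for glutamate, 7 for GABA and 0 for acetylcholine. In contrast, spab cells passed for acetylcholine in 14 of 26 cases and for neither glutamate nor GABA in any. VAChT was found in 87.0% of thinned spab cells, 41.0% of neurons and 6.72% of glia-like cells. Tk (16 of 34) and Capa (7 of 12) cells were likewise most often cholinergic, as were all 6 CNMa cells and 5 of 9 FMRFa cells. After thinning, VAChT was found in 55.6% of Tk and 72.7% of Capa cells, against 41.2% of neurons. ChAT was found in 37.0% of Tk and 36.4% of Capa cells, which was not above the 38.7% of neurons. CCHa2 cells were divided between acetylcholine (24 of 57) and glutamate (19), and Crz cells passed for glutamate in 15 of 35. Once depth was matched, VGlut was no more frequent in Crz cells (35.3%) than in neurons (37.2%). None of the 76 AstC and 57 CCHa2 cells passed for GABA, compared with 13 of 108 Dh31 cells.

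For other peptides few cells passed for any of the 4 groups. None of the groups was passed by 20 of 21 Lk cells, 12 of 13 ITP cells, 12 of 13 CCAP cells, 36 of 42 Ms cells, 24 of 28 Hug cells and 10 of 12 Dh44 cells. The same held for all 9 SIFa and all 5 Burs cells, of which 3 SIFa and 2 Burs cells passed for Ddc, as did 3 CCAP cells. For most of these genes the cells were no shallower than the neurons they were compared with. The median was 9928.5 UMIs in Hug cells, 7799 in Ms cells and 6881 in Lk cells, but 5721 in ITP cells and 6080 in CCAP cells. After thinning, VAChT was found in 3.70% of Hug, 11.1% of Lk and 17.6% of Ms cells, against 41.3% to 41.4% of neurons and 6.72% of glia-like cells, and VGlut in 27.8% to 29.6% of the 3 groups, close to the 25.8% of glia-like cells. CCAP and Dh44 cells lay nearer to neurons in these 2 genes once depth was matched, but few cells were kept. VGlut was found in 41.7% of the 12 CCAP and 36.4% of the 11 Dh44 cells kept, against 37.2% of neurons, and VAChT in 33.3% and 27.3%, against 41.3% of neurons. ChAT was found in 33.3% of CCAP and 18.2% of Dh44 cells, against 38.7% of neurons and 3.49% of glia-like cells. Among the Pdf cells, 9 of 11 passed for none at a median of 3096 UMIs, and the 2 others held Tbh, an enzyme of octopamine synthesis.

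A subset of AstC cells had the transcripts of serotonergic neurons. Of the 76 cells, 10 (9 different barcodes) held 5 or more UMIs of Trh, the tryptophan hydroxylase of serotonin synthesis. They numbered 2 in each of Starvation 1 to 3, 1 in Normal 1, 1 in Normal 2 and 2 in Normal 4. All 10 also passed for the vesicular monoamine transporter Vmat and for Ddc, and 7 for the serotonin transporter SerT, whereas no AstC cell passed for Vmat or SerT without Trh. Of the 10 cells 2 had a deeper copy, and 8 were left without them. None was high for another of the 40 genes. Their median AstC level was 60.4 per 10000 and that of the other AstC cells 136, so that none of the 10 remained at a threshold of 100 per 10000. Among the 92 cells of the data with 5 or more Trh UMIs, 10.9% were high for AstC, compared with 1.31% of all neuron-like cells. Trh was found in 15.7% of thinned AstC cells, 4.29% of neurons and 3.49% of glia-like cells. A further 15 AstC cells passed for Ddc, which makes dopamine and serotonin, but not for Trh.

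High levels of 2 or more of the genes were found in 86 cells, 11.0% of the high cells, and of 3 or more in 21. The pair AstC and Dh31 was the most frequent, with 17 cells (15 barcodes) from all 5 replicates, 5 in starvation and 12 in normal. This was 22.4% of the AstC cells and 15.7% of the Dh31 cells. Of these 17 cells 4 were also high for Tk. AstC and Tk shared 8 cells (7 barcodes), and AstA and Tk shared 7 (6 barcodes), all from Normal 2, 3 and 4. In the stricter setting of 20 UMIs and 100 per 10000, 35 cells were high for 2 or more genes and 4 for AstC and Dh31. Of the 86 cells with several peptides, 5 were among the 5% of cells with the highest doublet scores of their libraries.

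**Figure D3:**
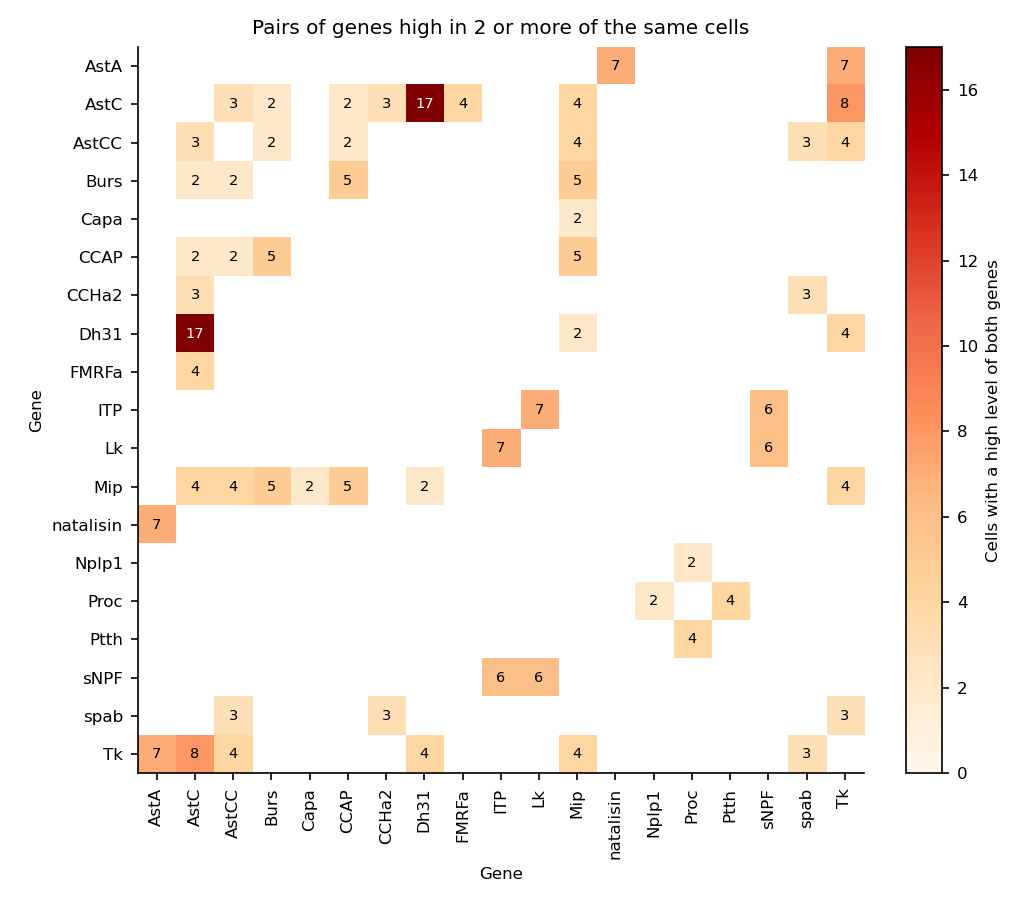
Number of cells with a high level of both genes, for each pair of genes found together in 2 or more cells (rows and columns, the matrix is symmetric). AstC with Dh31 is the darkest pair with 17 cells; ITP, Lk and sNPF form a block apart from the block of AstC, AstCC, Burs, CCAP and Mip.

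Small sets of cells carried fixed combinations. All 5 Burs cells were also high for CCAP and Mip, 4 from starvation and 1 from normal, and 2 of them were high for AstC and AstCC as well. These peptides are known together from neurons that act around ecdysis, many of them in the ventral nerve cord, which had been cut off. ITP, Lk and sNPF were high together in 6 cells (5 barcodes), 4 from Starvation 1 and 2 and 2 from Normal 2 and 3, all in the insulin-led clusters. Another cell, of Normal 4, was high for ITP and Lk, so that 7 of the 13 ITP cells were also high for Lk. Of the 5 Ptth cells 4 were high for Proc, in Normal 1 and 4. AstCC, spab and Tk were high together in 3 cells, 1 each of Normal 2, 3 and 4, but with only 2 different barcodes. AstA and natalisin shared 7 cells with only 4 different barcodes, and 4 such cells were left without those with a deeper copy.

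Genes of peptide processing were higher in some peptidergic cells than in the remaining neuron-like cells. amon, the convertase, had 1337 CPM in natalisin cells, 1074 CPM in AstA cells and 851 CPM in Ms cells, against 224 to 241 CPM in the neurons set against them. It was higher in every library with such cells for these 3 genes. The amidating enzyme Phm had 621 CPM in Ms cells and 674 CPM in Pdf cells, against 205 and 217 CPM. The transcription factor gene dimmed (dimm), which marks cells that secrete large amounts of amidated peptides, was found in 16 of 42 Ms cells and 14 of 28 Hug cells, but reached 5 UMIs in only 1 Ms cell. Both groups had over 55 CPM of dimm (70.3 in Ms and 55.9 in Hug cells), with 1.19 and 1.73 CPM in the other neurons.

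Genes whose level was highest in the cells of a peptide, apart from the list itself, differed between peptides. In Pdf cells these were led by its own receptor gene Pdfr, at 3267 CPM in 10 of 11 cells against 19.8 CPM in other neurons, and by the clock gene vri, at 493 against 2.95 CPM. Hug cells were marked by CG8401 in 25 of 28 cells (3482 against 11.6 CPM) and ITP cells by ImpL2, an insulin-binding protein gene, in 11 of 13 (3910 against 107 CPM). VGlut itself was a leading gene of Nplp1 cells (4338 against 932 CPM) and Ddc of AstC cells (2869 against 291 CPM). The transcription factor gene CrebA, which drives secretory pathway genes, was among the 5 leading genes of Ms, Pdf, CCAP and natalisin cells. Crz and Dsk cells were led in part by NPC genes, klu for Crz (found in 20 of 35 cells) and mira for Dsk (7 of 14). These levels are sums over the cells, in which deep cells weigh most. Of the Crz cells 8 were NPC-like and 11 had a deeper copy, and of the Dsk cells 4 and 3. Whether the NPC genes came from those cells was not tested.

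The remaining cells, those not high for the gene, show where the rest of each transcript was found. For 7 of the 40 genes the level in remaining neuron-like cells was at least 2-fold that of glia-like cells and above it in all 7 libraries. They were sNPF (248 against 28.3 CPM), Dh44 (61.8 against 10.5 CPM), Gpb5 (84.6 against 14.5 CPM), Proc (166 against 31 CPM), Nplp1 (137 against 25.9 CPM), spab (149.6 against 36.2 CPM) and Dh31 (256 against 66.3 CPM). The 6 of them with 10 or more high cells also had the smallest part of their UMIs in high cells among the 23 such genes, between 12.6% for sNPF and 42.1% for Dh44.

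**Figure D4:**
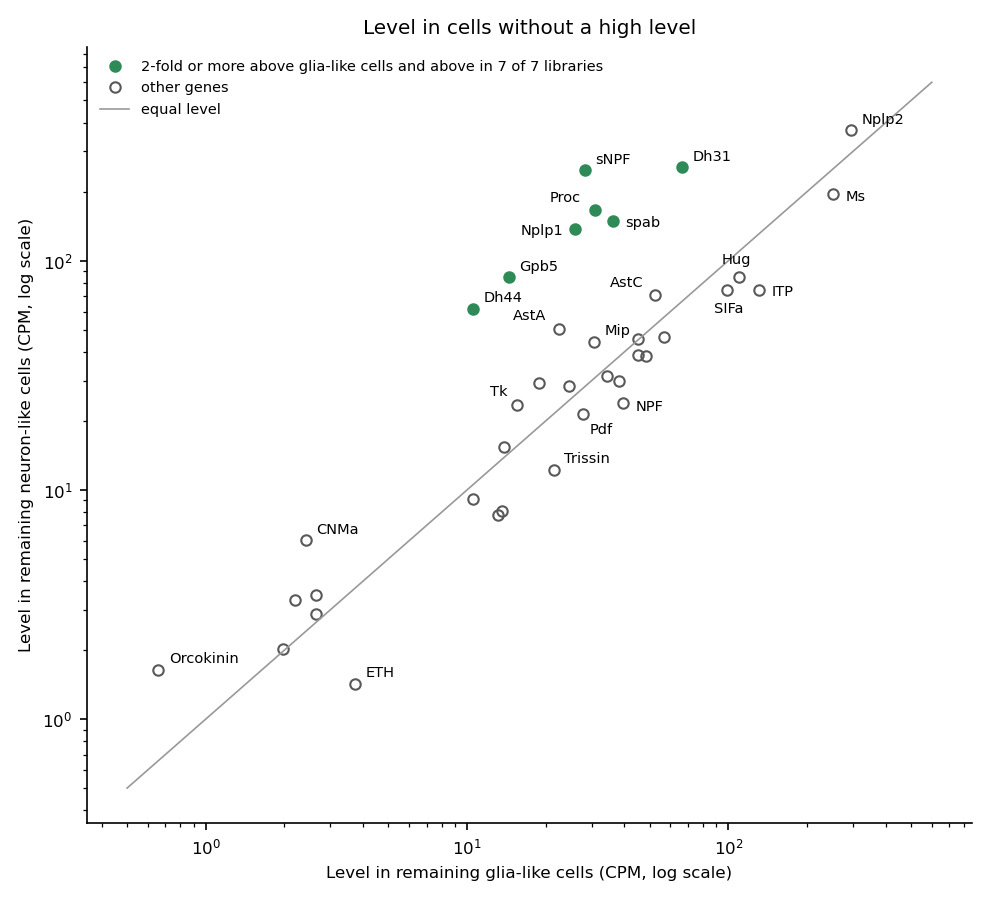
Level of each gene in cells not high for it, in neuron-like cells (vertical axis) against glia-like cells (horizontal axis), in CPM on log scales; the line marks equal levels and some of the open points are labelled. The 7 filled points, sNPF to Dh31, lie well above the line, and most other genes lie near it or below.

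For the 22 genes with 10 or more high cells other than Nplp2, remaining cells of all libraries were pooled by class. The pooled level was higher in neuron-like than in glia-like cells for 14, by under 2-fold for 7 of them, and lower for 8. Among those above were AstC (1.35-fold), Mip (1.45-fold) and Tk (1.51-fold), each in all 7 libraries, and AstA (2.26-fold) in 6 of 7. Single libraries did not always follow the pooled direction. Lk (1.01-fold) was above in 3 of 7 libraries, whereas CCHa2 (0.79-fold), CCAP (0.86-fold) and Dsk (0.92-fold) were above in 5 of 7. Other genes had no higher level in neuron-like cells. ITP had 74.6 CPM in remaining neuron-like cells and 131 CPM in glia-like cells, Hug 85.0 and 109.5 CPM, SIFa 74.7 and 98.6 CPM and Pdf 21.5 and 27.9 CPM. A Hug UMI was found in 39.3% of remaining neuron-like and 42.4% of glia-like cells, at median depths of 6554 and 4190.0 UMIs. Such shares of cells with a UMI, at or below those of glia-like cells, are not read as expression in the remaining neurons. The remaining level of ITP was not uniform, and its source was not tested. In Starvation 3 it was 18.5 CPM in neuron-like cells without the Kenyon cell-like ones and 199 CPM in glia-like cells. In 13 of the 23 genes with 10 or more high cells, the library with the highest level carried by high cells also had the highest level in the remaining cells. For NPF the remaining cells held 9.20, 3.68 and 8.69 CPM in Starvation 1 to 3 and 109, 37.0, 3.84 and 31.1 CPM in Normal 1 to 4.

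sNPF was high in few Kenyon cell-like cells, 5 in all, although these cells as a class carried it. Their summed level was 2319.6, 1927 and 1882 CPM in Starvation 1 to 3 and 1861, 1624 and 1221 CPM in Normal 1 to 3, and Normal 4 had 3 such cells and no value. Other neuron-like cells had 198 to 255 CPM in the starvation libraries and 163 to 250 CPM in the normal libraries. Kenyon cells are the intrinsic neurons of the mushroom body, the learning centre of the fly brain. The values of Starvation 1 to 3 all lay above those of Normal 1 to 3, but Starvation 3 exceeded Normal 1 by a small margin, and this difference was not tested.

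The last question was whether starvation changed the levels. UMIs were summed over the cells of a replicate, and the 2 starvation and 3 normal replicates were compared with the quasi-likelihood test of edgeR over all genes. In sums, fewer cells of a type and less RNA per cell cannot be told apart, so the share of high cells is given beside them. No gene passed an adjusted p of 0.05, neither among 9209 genes over all cells (0% called) nor among 8059 genes over neuron-like cells (0% called), and so none of the 38 tested genes of the list did in either. Nplp3 and RYa did not pass the filter on low counts. At an unadjusted p under 0.05 there were 9 genes of the list over all cells, 3 higher in starvation against 4.37% of all genes and 6 lower against 2.51% (633 of all genes in both directions, 6.87%). Over neuron-like cells there were 12 of the list, 3 higher against 4.45% of all genes and 9 lower against 4.12% (691 in both directions, 8.57%). DESeq2 called 75 genes, 2 of the list, over all cells, and 108 genes, 8 of the list, over neuron-like cells.

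More genes of the list had lower than higher values in starvation. Over neuron-like cells, 25 of 38 genes were lower and 13 higher, with a median log2 fold change of -0.44, compared with 0.00 over all genes tested. Over all cells, 24 were lower and 14 higher, with a median of -0.50 against -0.05. Both starvation replicates lay beyond all normal replicates for 14 of the 38 genes over neuron-like cells (4 higher against 10.8% of all genes tested, 10 lower against 13.8%), a share of 36.8% against 24.6%. Over all cells this held for 11 (3 higher against 10.8%, 8 lower against 15.5%), 28.9% against 26.3%. The median standard error was 0.71 for the list and 0.27 for all genes over neuron-like cells. None of the 12 processing genes and none of the 14 transmitter genes was called in either fit.

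**Figure D5:**
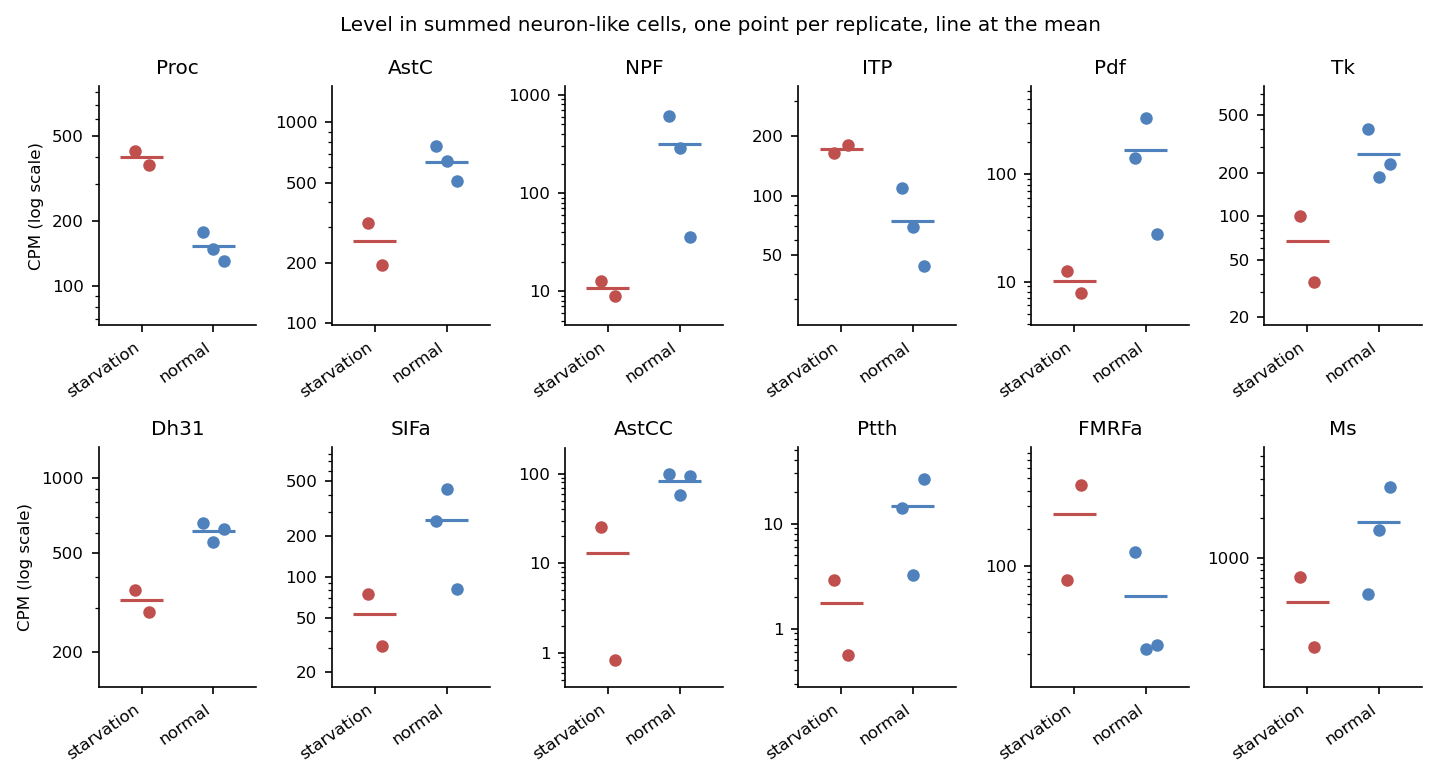
Level over the summed neuron-like cells, in CPM on a log axis that differs between panels, for the 12 genes of the list with the smallest p. Red points are the 2 starvation replicates, blue points the 3 normal replicates and lines the means; for Proc and Dh31 the points of a condition lie close together, and for NPF, AstCC, Ptth, FMRFa and Ms they are far apart.

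Over neuron-like cells, Proc had the smallest p of the list. It had 428 and 367 CPM in the starvation replicates A and B, against 179, 149 and 131 CPM in the normal replicates A to C. The log2 fold change was 1.42 ± 0.19 (SE), with an adjusted p of 0.138 in edgeR's quasi-likelihood test. The share of Proc-high cells was 0.850% and 0.9% in starvation and 0.437%, 0.337% and 0.418% in normal, a difference of 0.478 points (exact permutation p = 0.2). Leaving out any replicate gave log2 values of 1.35 to 1.48, DESeq2 called the gene, and with the insulin-led clusters added the log2 fold change was 1.15. Of the 58 Proc cells none had a deeper copy. High cells held 40.3% of all Proc UMIs. In Starvation 1 to 3 the remaining neuron-like cells, without Kenyon cell-like ones, had 239, 250 and 192 CPM. Those of Normal 1 to 4 had 135, 75.9, 120 and 67.7 CPM. Over all cells the conditions barely separated, with 208 and 159.5 CPM in starvation, against 159.0, 90.2 and 59.3 CPM in normal. The log2 fold change there was 0.95 ± 0.33 with an adjusted p of 0.662 (edgeR), and NPF had the smallest p.

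AstC, Dh31 and Tk had lower summed levels in both starvation replicates than in any normal replicate, without passing the adjusted threshold. AstC had 315 and 195 CPM in the starvation replicates, against 759.8, 639 and 509 CPM in the normal replicates, with a log2 fold change of -1.27 ± 0.26 and an adjusted p of 0.239 (edgeR). Its share of high cells overlapped between the conditions, with 0.686% and 1.20% in starvation and 0.873%, 0.631% and 1.25% in normal. The median level of an AstC-high cell was 95.6, 131 and 66.0 per 10000 in Starvation 1 to 3 and 243, 495, 309 and 100.3 per 10000 in Normal 1 to 4, with Starvation 2 above Normal 4. At 20 UMIs and 100 per 10000, the share of AstC cells in both starvation replicates was below that in all normal replicates, a difference of -0.321 points.

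Dh31 had 355 and 291 CPM in starvation, against 663, 556 and 623 CPM in normal, with a log2 fold change of -0.89 ± 0.22 and an adjusted p of 0.285 (edgeR). Its high cells made up 1.07% and 1.00% in starvation and 1.16%, 1.14% and 1.67% in normal. By library these shares overlapped, with 1.3% in Starvation 1 and 1.01% in Normal 3. High cells held 41.5% of all Dh31 UMIs. In Starvation 1 to 3 the remaining neuron-like cells, without Kenyon cell-like ones, had 227, 202 and 175 CPM. Those of Normal 1 to 4 had 381, 322, 286 and 347 CPM. Tk had 100.2 and 35 CPM in starvation, against 399.7, 186 and 229 CPM in normal, with a log2 fold change of -1.95 ± 0.46 and an adjusted p of 0.285. Tk-high cells made up 0.192% and 0.1% in starvation and 0.509%, 0.463% and 0.836% in normal. For Dh31 and Tk alike the shares did not overlap between the conditions, at the smallest possible exact permutation p of 0.2, but at 20 UMIs and 100 per 10000 those of Dh31 did.

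Among the 23 genes with 10 or more high cells, the shares of 5 did not overlap between conditions (21.7%), against 18.2% of the 346 genes with as many high cells in the data. Proc was the gene that was higher in starvation, and AstA, Dh31, Ms and Tk were lower. For genes lower in starvation the share was 17.4% of the list and 4.34% of the 346 genes, and for genes higher 4.35% and 13.9%. AstA cells made up 0.110% and 0.3% in starvation and 0.364%, 0.379% and 0.418% in normal, and Ms cells 0.412% and 0.2% against 0.655%, 0.421% and 0.627%. In cells thinned to 2000 UMIs, the conditions did not overlap for Proc, AstA, Dh31 and Tk, and overlapped for Ms, as they did for Ms without cells with a deeper copy. AstA shares overlapped at 5 UMIs and 25 per 10000.

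NPF had the largest fold change of the list over neuron-like cells. Its level was 12.6 and 8.97 CPM in starvation, against 617, 286 and 35.4 CPM in normal, a log2 fold change of -4.71 ± 1.04 with an adjusted p of 0.267 (edgeR). Of the NPF-high cells described above, the 1 starvation cell and 4 of the 5 normal cells were in this sum, and the cell of Normal 4 with 2155 UMIs was not, since it lay in the insulin-led cluster. Over all cells, where it is counted, NPF had 8.25 and 8.69 CPM in starvation, against 410.3, 149.5 and 116 CPM in normal. The largest cell held 68.2% of all NPF UMIs of Normal 1, 85.5% of Normal 2, 91.4% of Normal 3 and 73.3% of Normal 4. Those of Normal 2 and 3 had the same barcode. Whether such neurons were missed in the starvation pools or lost the transcript cannot be told apart. Pdf had 12.4 and 7.85 CPM in starvation, against 141, 331 and 28.0 CPM in normal, with a log2 fold change of -3.93 ± 0.91 and an adjusted p of 0.285. Both Pdf-high cells of the starvation condition lay in the insulin-led cluster and were not in this sum, and with these clusters added the log2 fold change was -2.07.

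ITP and SIFa cells were likewise divided between neuron-like and insulin-led clusters. ITP had 164 and 179.6 CPM in starvation, against 109.9, 69.4 and 44.2 CPM in normal over neuron-like cells, a log2 fold change of 1.29 ± 0.30 with an adjusted p of 0.285 (edgeR). With the insulin-led clusters added it was -0.0615, and over all cells it was 0.00. SIFa had 74.8 and 31.1 CPM in starvation, against 256, 443 and 81.3 CPM in normal, with -2.22 ± 0.65 and an adjusted p of 0.352, and +1.25 with those clusters added. For both genes the direction therefore depends on which cells are summed.

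Over all cells the size of the fold change depended on a single replicate for Capa, Hug and Ptth, and a few cells carried Capa and Ptth. Capa had 37.8 and 809.7 CPM in starvation, against 44.2, 41.0 and 27.7 CPM in normal, a log2 fold change of 3.61 ± 1.09 with an adjusted p of 0.662 (edgeR), and 0.06 without Starvation B. Hug had 339 and 1048 CPM in starvation, against 205, 71.0 and 251 CPM in normal, a log2 fold change of 2.00 ± 0.73 that was 0.93 without Starvation B. Ptth had 4.29 and 0.999 CPM in starvation, against 28.9, 3.91 and 98.6 CPM in normal, a log2 fold change of -4.11 ± 1.54 that was -2.36 without Normal C. Crz, with high cells in all 7 libraries, had 163 and 176 CPM in starvation, against 316, 409.9 and 300.2 CPM in normal. Its log2 fold change was -0.96 ± 0.27 with an adjusted p of 0.662 (edgeR), and -0.93 without cells with a deeper copy. The replicates of the conditions did not overlap for Hug and Crz, as for 26.3% of all genes tested.

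Among the other genes of the plot of levels by condition, Ms had 712 and 206 CPM in starvation over neuron-like cells, against 524, 1636 and 3463 CPM in normal, a log2 fold change of -2.09 ± 0.84 with an adjusted p of 0.532 (edgeR). FMRFa had 77.4 and 439.7 CPM in starvation, against 129.98, 22.2 and 23.6 CPM in normal, a log2 fold change of 2.30 ± 0.87 that was 0.49 without Starvation B. AstCC had 25.5 and 0.841 CPM in starvation, against 98.0, 58.2 and 94.7 CPM in normal, a log2 fold change of -2.51 ± 0.82 with an adjusted p of 0.407. The replicates overlapped for Ms and FMRFa.

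Fitted values of 6 further genes with roles in feeding or metabolism follow, which were picked for those roles and do not stand for all such genes. sNPF had 313 and 295 CPM in starvation over neuron-like cells, against 284, 292 and 171 CPM in normal (log2 fold change 0.34 ± 0.23). These sums include the Kenyon cell-like cells. They numbered 57, 59 and 40 in Starvation 1 to 3 and 27, 23, 37 and 3 in Normal 1 to 4. What their number adds to the sNPF values was not tested. Lk had 428 and 84.1 CPM in starvation, against 105, 193 and 22.5 CPM in normal (1.31 ± 0.80). Akh had 26.6 and 176 CPM in starvation, against 95.1, 8.46 and 20.8 CPM in normal (1.45 ± 0.97). CCHa2 had 194 and 372 CPM in starvation, against 198, 157 and 192 CPM in normal (0.68 ± 0.31). AstA had 149 and 92.5 CPM in starvation, against 123, 639.7 and 204 CPM in normal (-1.39 ± 0.64). Dsk had 121 and 634 CPM in starvation, against 118, 3.5 and 668 CPM in normal (0.49 ± 1.46). Their replicates overlapped except for sNPF, and their adjusted p-values lay between 0.602 and 0.956 (edgeR).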

How the data were processed

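Single cells of dissociated larval brain lobes were measured in 7 droplet libraries, 3 of the starvation and 4 of the normal condition. The authors aligned the reads with Cell Ranger and deposited UMI counts per gene and cell, not normalized, for each library, and an aggregated matrix per condition that held the same counts at every gene and cell. The sources differ on the kit chemistry and on the hour of transfer, for which the label is given. No column of other samples was present (0 unused).

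The 40 genes, the gene lists and the tests were chosen with earlier results of these data known. Every gene is accounted for, and genes with 10 or more high cells are given in full; partner genes are the 5 with the largest CPM ratio (5 CPM added) found in 50% of the high cells. Cells were clustered per condition without the 40 genes (scanpy 1.11.5, 2000 variable genes, 31 components, 20 neighbours, leidenalg 0.10.2, resolution 2) and named from marker lists; doublets were scored with Scrublet and kept. All cells entered the counts, without the study's filter of 200 to 4500 genes and at most 20% mitochondrial UMIs, which was an alternative.

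UMIs summed per replicate were tested with edgeR 4.0.16 (limma 3.58.1, R 4.3.3), quasi-likelihood, TMM, Benjamini-Hochberg adjusted over all genes, threshold 0.05, with DESeq2 1.42.0 as alternative. Shares of cells were compared by exact permutation of the replicates (Python 3.11.15, scipy 1.17.1), and intervals are exact binomial at 95%. A count of 0 was read as allowing 3 counts. On simulated counts with known changes, the fit over neuron-like cells recovered 68 of 98 genes changed by 2 on the log2 scale and 85 of 97 changed by 3, with 8 false calls, and the fit over all cells 50 of 97 and 77 of 98, with 5 false calls. The changed genes were drawn from all genes tested. The list had a larger median standard error, 0.71 against 0.27 over neuron-like cells and 0.77 against 0.36 over all cells. Recovery for genes of the list was not measured. No table of sequences was used here.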

Additional observations from a re-analysis of the deposited data

Results flagged for a closer look

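For the genes with 10 or more high cells, the share of high cells and the CPM over all cells were checked. A single normal library far from the other 3 was looked for in 46 sets of values, and 6 stood apart. The rule gives about 1 in 20 by chance for independent, continuous values, which these are not. Some shares rest on 1 or 2 cells, Normal 2 and 3 were counted as 1 replicate, and both measures were taken for each gene. The 6 are therefore not compared with chance. The share of Capa-high cells was 0.209% in Normal 4, where 2 were found, against 0.0728% to 0.0914% in the others, with 1 each. For CCHa2 it was 0.274% in Normal 2, against 0.655% to 0.731%, and for Crz 0.146% in Normal 1, against 0.624% to 0.640%. Dh44-high cells made up 0.291% of Normal 1, where 4 were found, and 0.0779% to 0.104% of the others, with 1 each. ITP had 493 CPM in Normal 3, against 111 to 140 CPM, and a single cell with 2779 UMIs held 80.2% of its ITP UMIs. Mip had 353 CPM in Normal 1, against 26.4 to 45.3 CPM, and a single cell held 43.4% of its Mip UMIs.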

How the results depend on the processing

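Over all cells, edgeR called 0 genes and 0 of the list; with the 7 libraries as separate samples 116 genes, with DESeq2 75 genes and 2 of the list (NPF, Capa), without the filter on low counts 8 and 1, and 0 without any replicate. Over neuron-like cells it called 0 and 0; with 7 libraries 205 and 4, with DESeq2 108 and 8, with the insulin-led clusters added 3 and 1 (NPF), without the filter 321 and 19, and 0 to 1 genes and 0 to 1 of the list when a replicate was left out. With those clusters added, the log2 fold change turned to -0.0615 for ITP and 1.25 for SIFa. Libraries of the same label number did not deviate together (correlations of 0.119, 0.248 and -0.223 over all cells and 0.144, -0.061 and 0.122 over neuron-like cells), so the numbers do not show a pairing; with the replicate block 11 genes and 1 of the list were called over all cells, and 94 and 5 over neuron-like cells.

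The 784 high cells became 1331 at 5 UMIs and 25 per 10000, and 496 at 20 UMIs and 100 per 10000, where 35 of the 86 cells were left high for 2 or more genes. The starvation minus normal share of high cells turned to -0.337 points at the higher threshold and to -0.0972 points after thinning, and lay between 0.351 and 1.15 points when a replicate was left out. The settings with 1 copy of each barcode, with the insulin-led clusters and with replicates left out of shares were chosen after seeing the data. Among the other values, 329 kept direction and side of the threshold, 34 passed it only in the alternative and 8 moved. The cause of these changes was not tested. Depth limits single cells: at 2228 UMIs, the median of Normal 1, the 10 UMIs asked for are close to 50 per 10000.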
